A study of Mus musculus with 2 samples.

Results

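The GIMAP genes (GTPases of immunity-associated proteins) were examined in mouse thymocytes on 2 one-colour Affymetrix arrays, 1 titled TKO and 1 titled DKO. All probe sets annotated to a single gene that is Gimap1, Gimap3, Gimap4, Gimap5, Gimap6, Gimap7, Gimap8 or Gimap9 were taken, which gave 11 of 45037 probe sets for 8 of 18193 genes. Gimap4, Gimap6 and Gimap7 had 2 probe sets each and the other 5 genes had 1. No further probe set was reached through an older alias, and none listed a GIMAP gene together with another gene. By the series' design text the TKO cells came from LckCre(+)Cdkn2a-/-Ring1A-/-Ring1Bfl/fl mice and the DKO cells from LckCre(-)Cdkn2a-/-Ring1A-/-Ring1Bfl/fl mice, so that both lack Cdkn2a and Ring1A and carry the floxed Ring1B allele, and Cre, driven by the T-lineage promoter of Lck, is present in TKO alone. The samples' genotype field differs from this and gives TKO as a triple knockout of Ring1A, Ring1B and Cdkn2a, and DKO as a double knockout of Ring1A and Ring1B. Both samples were lineage-negative thymocytes of C57BL/6J mice, enriched by bead depletion, and the labels mention culture in standard medium; age, sex and any pooling of animals are not given in the sources used here.

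GIMAP proteins are small GTPases of lymphocytes that sit on the membranes of intracellular organelles and share a GTP-binding domain of the AIG1 type. Their genes lie side by side in 1 chromosomal cluster, and in mouse thymocyte development transcripts of several members are low in early stages and more abundant in mature T cells. Loss of some members, such as Gimap1 or Gimap5, in mice or rats shortens the life of peripheral lymphocytes, and the family is known above all for its part in lymphocyte survival and quiescence. Ring1A (gene Ring1) and Ring1B (gene Rnf2) are ubiquitin ligases of the Polycomb system, which silences genes of other lineages and stages. The comparison addresses the levels of these GTPase genes in early thymocytes whose stated genotypes differ in Cre or Cdkn2a. By their sex-linked genes, given below, the samples differed in sex as well.

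The windows upstream of the members with the most positive and the most negative differences are shown first, because these genes are neighbours in the cluster and yet differed in sign. In RefSeq's GRCm38.p6 annotation the order along chromosome 6 is Gimap8, Gimap9, Gimap4, Gimap6, Gimap7, Gimap1, Gimap5, Gimap3. Gimap9 is next to Gimap4, and Gimap5 next to Gimap3. Promoter windows were found for 8 of the 8 genes in the RefSeq table, Gimap8 with 2 overlapping windows. Each sequence is the 250 bases before the annotated start, 5′ to 3′ on the gene's own strand, with capitals where TGTGGT (the core bound by RUNX factors), AGGAAG (an extended core of ETS factors), AGATAA (bound by GATA factors), CTTTGA (bound by TCF and LEF factors) or TATAAA (a core of promoters) matched on either strand. No capitalised matches of different motifs overlapped.

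Gimap4, plus strand, chr6:48684328-48684577: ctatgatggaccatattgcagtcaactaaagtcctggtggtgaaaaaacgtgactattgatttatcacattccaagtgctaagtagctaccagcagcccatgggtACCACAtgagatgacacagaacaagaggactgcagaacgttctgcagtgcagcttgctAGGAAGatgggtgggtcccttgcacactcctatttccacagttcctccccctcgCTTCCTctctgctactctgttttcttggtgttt
Gimap3, minus strand, chr6:48770852-48771101: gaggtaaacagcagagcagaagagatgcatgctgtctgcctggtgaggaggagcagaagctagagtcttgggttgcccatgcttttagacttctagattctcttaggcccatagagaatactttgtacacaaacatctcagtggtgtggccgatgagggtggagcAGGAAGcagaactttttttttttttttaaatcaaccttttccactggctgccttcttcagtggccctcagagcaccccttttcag
Gimap5, plus strand, chr6:48745947-48746196: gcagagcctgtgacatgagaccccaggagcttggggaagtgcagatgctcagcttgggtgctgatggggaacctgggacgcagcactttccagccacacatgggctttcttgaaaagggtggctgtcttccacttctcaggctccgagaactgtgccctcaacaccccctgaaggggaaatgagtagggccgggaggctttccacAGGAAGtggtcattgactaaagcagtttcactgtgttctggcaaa
Gimap9, plus strand, chr6:48675885-48676134: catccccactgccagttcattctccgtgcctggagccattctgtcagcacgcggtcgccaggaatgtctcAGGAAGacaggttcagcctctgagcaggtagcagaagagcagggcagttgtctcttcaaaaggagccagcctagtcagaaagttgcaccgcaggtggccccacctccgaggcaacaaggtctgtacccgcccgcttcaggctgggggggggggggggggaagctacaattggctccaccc

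AGGAAG matched in 7 of the 9 GIMAP windows, against 29.5% of the 32841 upstream windows of this length in the table. It was found in all 4 windows printed above, whichever sign the gene's difference had, and Gimap4 carried 2 matches. Counted from the base next to the annotated start as -1, the match lay at -85 to -80 in Gimap3, at -45 to -40 in Gimap5 and at -180 to -175 in Gimap9, and in Gimap4 at -87 to -82 and, on the opposite strand, at -33 to -28. TGTGGT matched in 3 of the 9 windows, those of Gimap4, Gimap7 and Gimap1, against 14.0% of all windows. TATAAA matched in 1, that of Gimap6, against 12.4%. AGATAA and CTTTGA matched in 0 of the 9, against 9.99% and 13.8%. E-boxes (CANNTG), not capitalised here, were found in 7 of the 9 against 66.2% of all, and 1 of them overlapped the TGTGGT match of Gimap4. GC content of the GIMAP windows ran from 43.6% to 61.2% and was below the median of all windows, 52.4%, in 7 of the 9. CpG dinucleotides numbered 1 to 3 in 8 of the 9 windows and 8 in that of Gimap9, against a median of 6. The shares are over windows of all genes and were not matched for GC or CpG content. A match describes these letters only. Other forms of the sites that these factors bind were not searched, so a window without a match may still hold such a site.

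The values are MAS5 signals, array intensities on a linear scale that the authors had scaled alike, with means of 497 on both arrays after trimming 2% from each end. The median of all probe sets, 71.8 on the TKO array and 68.8 on the DKO array, served as a floor: a signal below it was raised to it, and a probe set below it on both arrays got no ratio and is called not measured. Ratios are log2 of TKO over DKO. With 1 array per label there is no spread between animals or cultures and no test, so a fixed rule of size was used, 2-fold or more (a log2 ratio of 1 in either direction). Signals depend on each probe set's own hybridisation, so they are compared between arrays and not between genes.

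The targeted genes were read first, since they check the labels. Cdkn2a had 18.5 on the TKO array and 679 on the DKO array, at least 9.47-fold lower, whereas the design text has it deleted in both samples and the genotype field in TKO alone. The brightest Rnf2 probe set gave 4384 on the TKO array and 4149 on the DKO array, and Ring1 gave 147 on the TKO array and 133 on the DKO array. The positions of these probe sets relative to the deleted parts of the genes were not analysed here. TKO array and DKO array therefore mean, throughout, the library labelled so. Xist had 16502 on the TKO array and 124 on the DKO array, and the Y-linked gene Eif2s3y had 55.3 on the TKO array and 1711 on the DKO array, so sex went along with the label. Genotype, sex and any batch cannot be told apart with 1 array each, and this holds for every GIMAP value given here.

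No GIMAP probe set differed 2-fold between the arrays, and most had a somewhat higher signal on the TKO array. Of the 11 probe sets, 10 were above the floor on both arrays and 1 was below it on both. By the 2-fold rule 0 were higher and 0 lower on the TKO array, against 2.91% higher and 0.578% lower of the 23894 probe sets measured on at least 1 array. Among 10 measured probe sets a count of 0 is near that background. Of the 10 measured probe sets, 8 had a ratio above 0 and 2 below, with a median of 0.37 on the log2 scale (1.29-fold) and a range of -0.19 to 0.67. Over the 21144 probe sets above the floor on both arrays the median was -0.03 and 45.5% were above 0. By gene, represented by its brightest probe set, 6 of the 8 were above 0 and the median was 0.37, beside -0.03 over all 11280 measured genes, of which 46.5% were above 0.

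**Figure D1:**
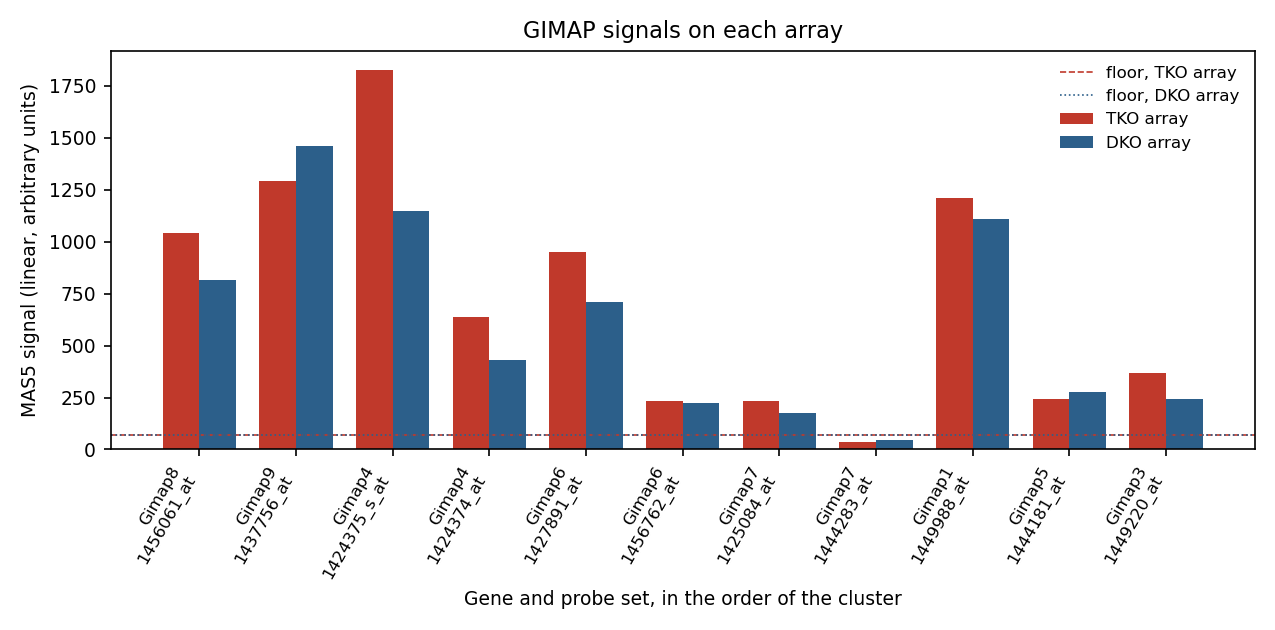
MAS5 signal (linear, arbitrary units) of the 11 GIMAP probe sets, in the order of the cluster, with the TKO array as the left and the DKO array as the right bar of each pair, 1 array each and no error bars; dashed and dotted lines are the floors of 71.8 and 68.8. The TKO bar is the taller one for 8 of the 10 measured probe sets, and the second Gimap7 probe set lies under both floors.

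Gimap4 had the most positive ratio of the family. Gimap4 is a T cell GTPase whose loss in mice slows the completion of apoptosis. Its probe set 1424375_s_at gave a signal of 1828 on the TKO array and 1147 on the DKO array, 1.59-fold higher (log2 ratio 0.67). Its other probe set, 1424374_at, gave 640 on the TKO array and 432 on the DKO array, 48.2% higher (log2 ratio 0.57). Both probe sets of the gene thus lay on the same side, with log2 ratios 0.10 apart. Probe sets of the _s_at type can match more than 1 transcript, and the other one is not of this type.

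Gimap3 followed. In mice this gene modifies how mitochondrial DNA variants segregate in blood-forming tissues. Its single probe set, 1449220_at, gave 369 on the TKO array and 245 on the DKO array, 1.51-fold higher (log2 ratio 0.59). Of all measured probe sets, 92.1% had a log2 ratio at or below that of Gimap3, and 93.7% one at or below that of the brighter Gimap4 probe set.

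Gimap6, Gimap7 and Gimap8 came next, with a step of 0.18 on the log2 scale from Gimap3 to Gimap6. Gimap6 takes part in autophagy through the ATG8-family protein Gabarapl2. Its probe set 1427891_at gave 948 on the TKO array and 712 on the DKO array (log2 ratio 0.41), while 1456762_at gave 232 on the TKO array and 223 on the DKO array (log2 ratio 0.06). The 2 Gimap6 probe sets were 0.35 apart on the log2 scale, so the size of the Gimap6 difference depended on which was read. For Gimap7, whose human counterpart acts as a GTPase through dimers, probe set 1425084_at gave 231 on the TKO array and 177 on the DKO array (log2 ratio 0.38). The second Gimap7 probe set, 1444283_at, gave 34.0 on the TKO array and 46.9 on the DKO array, under the floor on both, and has no ratio; without a floor it would be -0.47 on the log2 scale, opposite in sign to the first. Gimap8, the largest protein of the family with repeated GTP-binding domains, gave 1042 on the TKO array and 814 on the DKO array (log2 ratio 0.36).

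Gimap1 was close to even between the arrays. Gimap1 is needed in mice for the survival of mature T and B cells. Its probe set 1449988_at gave 1209 on the TKO array and 1108 on the DKO array (log2 ratio 0.13).

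Gimap5 and Gimap9 were the members with a lower signal on the TKO array. Gimap5 is the member whose loss causes T cell deficiency in lyp rats and in mutant mice. Its probe set 1444181_at gave 243 on the TKO array and 276 on the DKO array (log2 ratio -0.19). Gimap9, through probe set 1437756_at, gave 1293 on the TKO array and 1460 on the DKO array (log2 ratio -0.18). Relative to the DKO signal the Gimap5 difference was -12.1% and the Gimap9 difference -11.4%.

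Disagreement between probe sets of 1 gene on these same arrays gives a scale for such differences, though it holds no error between animals, RNA preparations or hybridisations. Over 4794 genes with 2 probe sets above the floor on both arrays, the log2 ratios of the 2 brightest differed by a median of 0.20, and in 90% of genes by 0.57 or less. The gap of 0.10 within Gimap4 was larger than that of 29.6% of these genes, and the gap of 0.35 within Gimap6 larger than that of 73.9%. In the order of the gene ratios, Gimap4, Gimap3, Gimap6, Gimap7, Gimap8, Gimap1, Gimap9 and Gimap5, the steps from Gimap8 to Gimap1 (0.23) and from Gimap1 to Gimap9 (0.30) were larger than that median gap, and the other 5 steps were smaller. Gimap4 and Gimap5, at the ends of the order, were 0.86 apart.

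Ratios of other probe sets in the range of signal spanned by the members were read beside them. Between mean signals of 202 and 1448, the lowest and highest of the measured GIMAP probe sets, 10272 probe sets were above the floor on both arrays. Their median log2 ratio was -0.01, with quartiles of -0.20 and 0.20 and a 90th percentile of 0.48. Of the 10 GIMAP probe sets 6 lay above the upper quartile, 4 between the quartiles and 0 below the lower one. Those above the 90th percentile were the 2 Gimap4 probe sets and that of Gimap3.

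**Figure D2:**
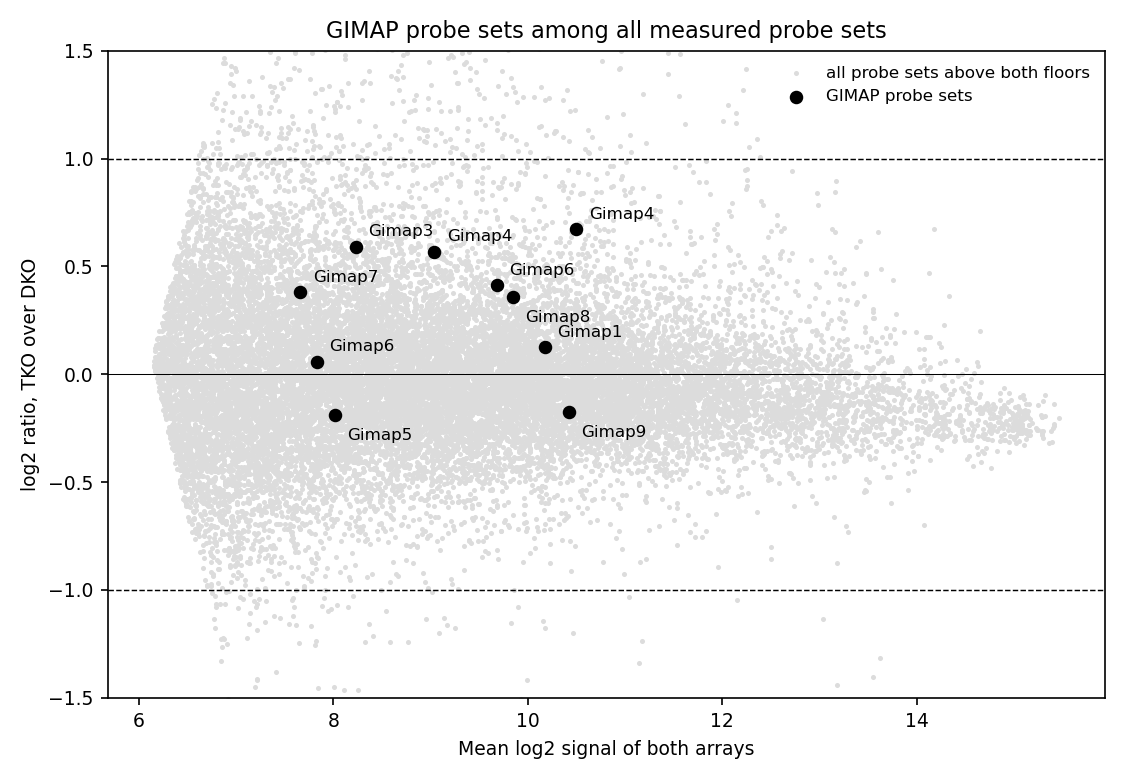
The log2 ratio of TKO over DKO against the mean log2 signal of both arrays, with grey points for all probe sets above both floors and labelled black points for the 10 measured GIMAP probe sets; dashed lines mark 2-fold, and 235 of the 21144 grey points lie beyond the axis limit of 1.5. The GIMAP points lie between the dashed lines, 8 above 0 and 2 below.

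From Gimap8 to Gimap3 the gene ratios were 0.36, -0.18, 0.67, 0.41, 0.38, 0.13, -0.19 and 0.59 on the log2 scale. Gimap9 and Gimap4, next to each other, thus had opposite signs, and so had Gimap5 and Gimap3. The negative ratios of Gimap9 and Gimap5 were smaller in size than the median gap of 0.20 between probe sets of 1 gene. Gimap4, Gimap6, Gimap7 and Gimap1, 4 genes in a row, were above 0. Gimap3 and Gimap5 are close paralogues, and whether their probe sets also pick up the transcript of the other was not tested. Between the first and the last member the RefSeq table lists 2 other genes, neither with a probe set here.

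The 6 nearest genes with a single-gene probe set on each side were also read. Of these 12 neighbours 8 were measured, 0 of them 2-fold higher and 0 lower, with 2 above 0, 6 below 0 and a median log2 ratio of -0.11. On the Gimap8 side, Repin1, a zinc finger gene, had 582 on the TKO array and 793 on the DKO array (log2 ratio -0.45), and the zinc finger gene Zfp775 had 206 on the TKO array and 275 on the DKO array (-0.42). AI854703, a transcribed pseudogene in RefSeq and the nearest of these to Gimap8, had 105 on the TKO array and 150 on the DKO array (-0.51) for its brightest probe set, and 103 on the TKO array and 116 on the DKO array (-0.16) for another. Lrrc61 had a log2 ratio of 0.06, and Rarres2 was above the floor on the DKO array alone, with a bound of -0.06. On the Gimap3 side, the membrane protein genes Tmem176b and Tmem176a had log2 ratios of -0.17 and 0.03 for their brightest probe sets, and Malsu1 had -0.05. Other Tmem176a probe sets gave -0.11 and 0.47. Atp6v0e2, Aoc1, Doxl1 and Gpnmb were below the floor on both arrays. By their brightest probe sets the 3 neighbours nearest to Gimap8 thus had ratios below that of every GIMAP gene.

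**Figure D3:**
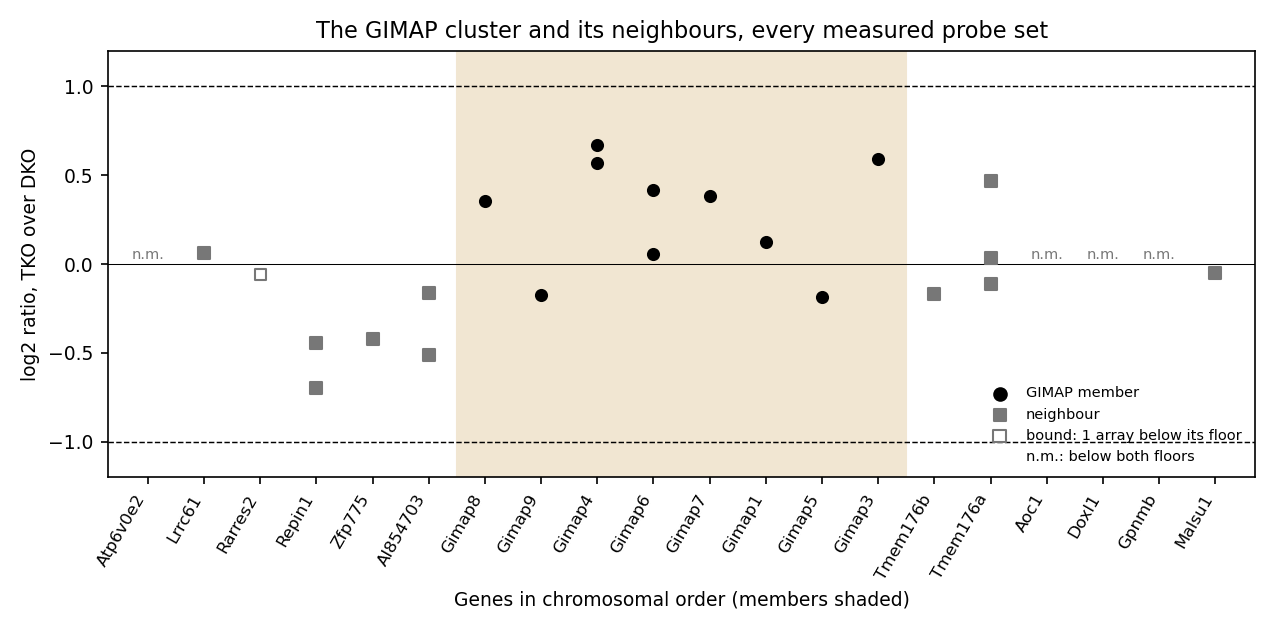
The log2 ratio of TKO over DKO for every measured probe set of the 8 GIMAP genes (black circles, shaded) and of the 6 nearest genes with a probe set on each side (grey squares, open for a bound), in chromosomal order and not to distance. Points of Gimap9 and Gimap5 lie below 0 within the cluster, and those of Repin1, Zfp775 and the brightest probe set of AI854703 lie below all GIMAP points.

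Partners of GIMAP proteins and survival regulators had ratios around 0. This list holds BCL2-family genes, which human or mouse GIMAP proteins have been reported to bind, autophagy proteins of the GABARAP family, and the kinase Gsk3b. By the 2-fold rule 0 of its 11 measured genes were higher and 0 lower, beside 3.58% higher and 0.532% lower over all measured genes, and the median was -0.06 with 4 above 0 and 7 below. Bad, a promoter of cell death, had 475 on the TKO array and 892 on the DKO array (log2 ratio -0.91). Mcl1, which opposes cell death, had 6261 on the TKO array and 4847 on the DKO array (0.37). Gabarapl1 was at -0.46 and the chaperone gene Hspa8 at -0.32.

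The list of mature T cell egress and quiescence, whose genes like many GIMAP genes are known to be high in mature T cells, had mostly positive ratios. By the 2-fold rule 2 of its 16 measured genes were higher and 0 lower, against 3.58% and 0.532% over all measured genes. Ratios were above 0 for 14 genes, and the median was 0.55. Positive medians were not particular to this list. The innate lymphoid and natural killer markers, read below, had a median of 0.58 and the B lineage markers 2.01, while the T lineage markers had -0.41. Ccr7, a chemokine receptor of mature T cells and of B cells, had 265 on the TKO array and 105 on the DKO array, 2.52-fold higher. Tob1, an inhibitor of proliferation, had 1930 on the TKO array and 899 on the DKO array, 2.15-fold higher. Klf2, the transcription factor that drives egress genes, had 1991 on the TKO array and 1115 on the DKO array (log2 ratio 0.84), and the integrin gene Itgb7 was at 0.78. The 2 genes below 0 were those of the surface proteins Cd5 (-0.07) and Cd6 (-0.05).

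Interferon-inducible GTPases, other immune GTPases outside the GIMAP family, had 1 gene past 2-fold upward and 0 downward among 11 measured, against 3.58% and 0.532% over all measured genes, with 9 above 0 and a median of 0.27. The higher one was Mx2, an antiviral GTPase, above the floor on the TKO array alone at 155 against 41.3 on the DKO array, and at least 2.26-fold higher. Mx1 was at a log2 ratio of 0.79, and the guanylate-binding protein genes Gbp8 and Gbp6 were at -0.60 and -0.52. This list too thus had genes on both sides of 0, those below it being Gbp6 and Gbp8.

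Transcription factors considered as regulators of the cluster were mostly below 0. The 2-fold rule called 1 of 13 higher and 0 lower, against 3.58% and 0.532% over all measured genes, with 4 above 0, 9 below and a median of -0.21. Lmo2, a cofactor of progenitor transcription complexes, had 1656 on the TKO array and 468 on the DKO array, 3.54-fold higher. Runx1 had 3127 on the TKO array and 4901 on the DKO array (log2 ratio -0.65), and Notch1, the receptor of T lineage commitment, had 7759 on the TKO array and 12640 on the DKO array (-0.70). Lmo1 was at -0.57. The listed factor Tal1 was below the floor on both arrays.

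**Figure D4:**
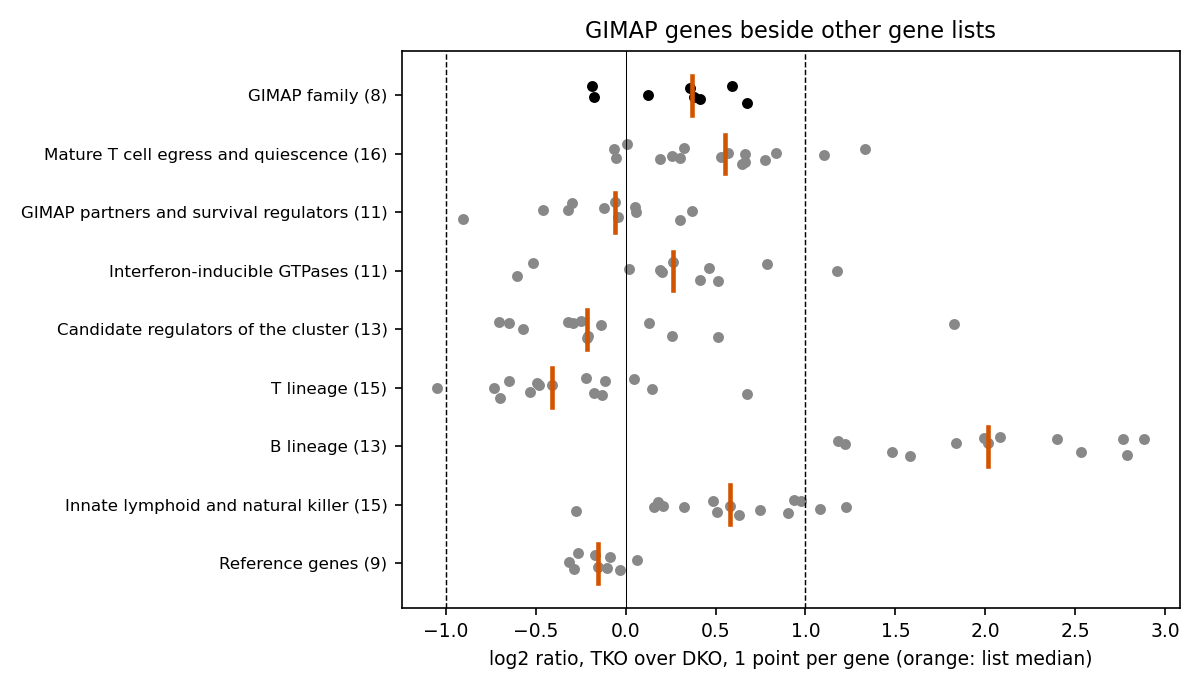
The log2 ratio of TKO over DKO, 1 point per measured gene and the number of genes in brackets, for the GIMAP family and 8 other lists; orange bars are list medians and dashed lines mark 2-fold. The 8 GIMAP genes lie between -0.19 and 0.67, on both sides of 0, and the B lineage genes lie beyond the right dashed line.

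Markers of other lymphocytes also differed between the arrays, and in such a bulk sample fewer cells of a type and less RNA per cell cannot be told apart. Over all measured genes 3.58% were 2-fold higher, 0.532% lower and 46.5% above 0. Of 13 measured B lineage markers 13 were at least 2-fold higher, with a median log2 ratio of 2.01 and a summed signal of 40346 on the TKO array and 9724 on the DKO array. B cells express GIMAP genes too, and the samples had been depleted of lineage-positive cells with beads; which lineage markers were used is not given in these sources. Of 15 measured innate lymphoid and natural killer markers 2 were at least 2-fold higher, 14 were above 0 and the median was 0.58. Their sums were 35695 on the TKO array and 33753 on the DKO array. These sums depend heavily on Gzma, the 1 marker below 0, with 18012.5 on the TKO array and 21801 on the DKO array. Of 15 measured T lineage markers 1 was at least 2-fold lower, Il2ra at a log2 ratio of -1.05, and 12 were below 0, with a median of -0.41 and sums of 69474 on the TKO array and 99205 on the DKO array. T lineage genes were above the floor on both arrays in 15 of 16 cases, the exception being Cd4. All 13 B lineage and all 15 innate lymphoid and natural killer genes with a probe set were too. Being above the floor therefore does not identify the cell type here. GIMAP genes are also active in endothelium, and of 12 endothelial markers 5 were above the floor on each array, with sums of 1178 on the TKO array and 1097 on the DKO array. Pecam1, Egfl7, Eng and Ramp2 were above the floor on both arrays, Cldn5 on the TKO array alone and Esam on the DKO array alone, while Cdh5, Kdr, Tek, Emcn, Tie1 and Vwf were below it on both. No marker of these lists had a signal of exactly 0 on either array. The part of these cell types in the GIMAP values was not tested.

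Of 10 measured myeloid markers 2 were at least 2-fold higher (Csf1r and Lyz2) and 2 lower (Ngp and S100a9), against 3.58% higher and 0.532% lower over all measured genes, with sums of 4873 on the TKO array and 4305 on the DKO array. Of the 7 stroma and epithelium markers 3 were measured, and of 4 erythroid markers with a probe set 1, with none past 2-fold. The 9 reference genes ran from -0.31 to 0.06 on the log2 scale with a median of -0.15, so the GIMAP genes with the lowest ratios, Gimap5 and Gimap9, lay within the range of the reference genes.

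Processing choices moved the GIMAP gene ratios little. Over 9 alternative settings the ratio of Gimap4 ran from 0.57 to 0.71, that of Gimap6 from 0.24 to 0.45 and that of Gimap9 from -0.19 to -0.14. Gimap3 and Gimap5 had a value under 8 of them, from 0.52 to 0.62 and from -0.25 to -0.15. No gene reached 2-fold or changed sign under any setting. Changing or removing the floor alone cannot move the ratio of a probe set above it. The settings on probe sets cannot move a gene with 1 measured probe set.

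**Figure D5:**
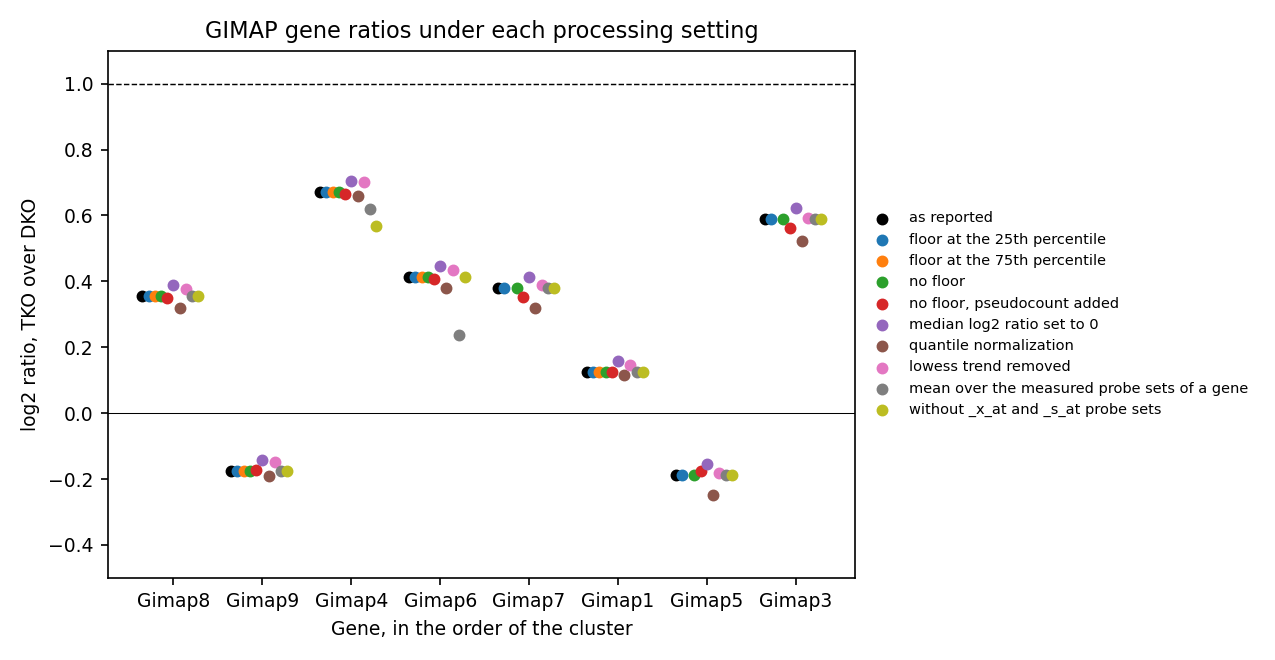
The log2 ratio of TKO over DKO of each GIMAP gene as reported (black) and under each alternative setting (colours), in the order of the cluster; the dashed line marks 2-fold. Gimap5 and Gimap9 stay below 0 and the other 6 genes between 0 and the dashed line, and Gimap3, Gimap5 and Gimap7 have no value with the floor at the 75th percentile.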

How the data were processed

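Expression was measured on 1-colour Affymetrix arrays, 1 per label, with biotin-labelled cRNA. The deposited values are intensity values per probe set on a linear scale, scaled by the authors. The submitters' processing notes name MAS5, a method that corrects the background and multiplies all signals of an array by 1 factor; they give no version or settings. Detection calls and scanner files were not used here. The number of arrays limits the precision.

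The platform annotation listed 1 gene for 34945 of the 45037 probe sets, several for 932 and none for 9160. Entrez IDs joined 99.4% of the first kind to RefSeq genes of GRCm38.p6, which gave current symbols, gene order and promoter windows. The files name no genome build. Members and lists were chosen with earlier results of these data known.

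Signals were floored at each array's median, and each gene was read from the probe set whose mean log2 signal was highest. Sums of marker lists are over such probe sets. Tools were Python 3.11.15, statsmodels 0.14.6, scipy 1.17.1, pandas 2.3.3, numpy 2.4.6 and matplotlib 3.10.9. The procedure was tested on simulated data, with changes larger than any GIMAP difference planted in bright probe sets only. The test therefore does not cover differences as small as those of the GIMAP genes, or dimmer probe sets. Named genes were all members, the targeted genes, 6 neighbours per side and up to 4 genes per list with the largest absolute ratio. The sex-linked genes, Tal1, Gsk3b, Gzma, Cd4, Cd5, Cd6 and the endothelial genes were named after their values were seen. Some listed genes had no single-gene probe set and were not analysed here. Alternatives were floors at the 25th or 75th percentile, no floor, a pseudocount of 16, the median ratio set to 0, quantile normalization, a lowess trend removed (span 0.3), the mean over probe sets, and leaving out _x_at and _s_at probe sets.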

Additional observations from a re-analysis of the deposited data

How the results depend on the processing

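No paired analysis was possible because each label had 1 array. The 135 alternative values of GIMAP genes and probe sets held 0 past 2-fold and 1 of opposite sign, that of the second Gimap6 probe set, 1456762_at, at -0.01 after quantile normalization against 0.06 as reported. The second Gimap7 probe set, 1444283_at, without a ratio as reported, is not among them: it had -0.47 with no floor or the floor at the 25th percentile and -0.33 with the pseudocount, lower than any other GIMAP value. None of the 135 moved by more than the SD of 0.21 that pairs of probe sets of 1 gene give. Many of them could not move, so their number is no measure of stability. Changing or removing the floor alone leaves the ratio of a probe set above it unchanged. The settings on probe sets cannot alter a gene with 1 measured probe set, and most gene values repeat that of the brightest probe set. The median over the measured GIMAP genes ran from 0.30, as the mean over probe sets, to 0.40, with the median ratio set to 0, against 0.37 as reported. With the floor at the 75th percentile only 5 of the 8 genes were measured, and their median was 0.36. The count of GIMAP probe sets past 2-fold was 0 in each direction under every alternative that gave one; the mean over probe sets gives no such count. The counts over all probe sets depended on the floor. Against 696 higher and 138 lower as reported, they were 2200 and 1203 with the floor at the 25th percentile, 217 and 27 at the 75th, 6235 and 4735 with no floor, and 2555 and 1620 with no floor and the pseudocount. Each array was measured once, so error between animals and hybridisations is not known for any value, and dim probe sets such as the second one of Gimap7 are limited by their signal over background.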
